A study of Mus musculus with 18 samples.

Results

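RNA-seq counts of the RPE were examined for the amino acid transporter families, the solute carrier families that move amino acids and related compounds across the plasma membrane or the lysosomal membrane. Members were the genes whose symbol is *Slc1a*, *Slc3a*, *Slc6a*, *Slc7a*, *Slc36a*, *Slc38a* or *Slc43a* followed by a number only. The rule found 61 genes in a table of 52636 genes, and the 49 genes with at least 10 counts in 3 or more of the 18 libraries were described. The counts that set this minimum are a description and support no result. *Slc6a4*, with 3 libraries at 10 to 12 counts, lay just inside it. *Slc7a15*, with 2 libraries at 10 and 11 counts, lay just outside it. All 7 *Slc1* and both *Slc3* genes were described, as were 13 of 19 *Slc6*, 11 of 15 *Slc7*, 3 of 4 *Slc36*, 10 of 11 *Slc38* and all 3 *Slc43* genes. The other 12 genes (*Slc6a3*, *Slc6a5*, *Slc6a16*, *Slc6a18*, *Slc6a19*, *Slc6a21*, *Slc7a9*, *Slc7a12*, *Slc7a13*, *Slc7a15*, *Slc36a3* and *Slc38a5*) had at most 11 counts in any library, and *Slc6a18* had none, which allows up to 3 counts in each library.

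The 18 libraries were made from the RPE of C57BL/6 mice at postnatal day 14, each from both eyes of 1 mouse, with 3 libraries in each of 6 groups. Uninjected eyes were compared with eyes that received AAV8 vectors under the *Best1* promoter in the subretinal space at birth. The vectors carried GFP, nSREBP2 (the nuclear, active form of the sterol regulator SREBP2), a control hairpin (ctrl sh) or 1 of 2 hairpins against *Lrp2* (*Lrp2* sh1 and *Lrp2* sh2). GFP was the control of nSREBP2, and ctrl sh was the control of both hairpins, so that the 2 hairpin comparisons share their control libraries. *Best1* restricts vector expression to the RPE, but the tissue, freed of retina and optic nerve and dissociated from the eyecup, can hold other cells. In such bulk RNA, fewer cells of a type and less RNA per cell cannot be told apart.

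Amino acid carriers differ in driving force and in partners. The SLC1 carriers take up glutamate or small neutral amino acids with sodium, and the SLC6 carriers take up neurotransmitters, taurine, creatine, glycine and proline with sodium and chloride. Most SLC7 light chains work only when paired with an SLC3 heavy chain and exchange 1 amino acid for another, while the cationic branch of SLC7 works alone. SLC38 carriers move glutamine and other neutral amino acids with sodium, SLC36 carriers use protons, and SLC43 carriers move large neutral amino acids without an ion. The RPE lies between the choroidal blood supply and the photoreceptors, and it is known for passing taurine and other amino acids to the retina and for clearing GABA and glutamate from the subretinal space.

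Promoter windows of 300 bases, from 250 before to 50 after the start site, were taken from RefSeq on GRCm38.p6 and were present for 34 of the 49 genes, with 52 windows. Those without a window included *Slc1a5*, *Slc6a6*, *Slc6a7*, *Slc6a8*, *Slc7a2*, *Slc7a5* and *Slc38a3*. Motifs were searched on both strands. The letters TGATGCAA, the core of the C/EBP-ATF response element through which amino acid shortage is known to act, stood in the windows of 3 of the 34 genes (*Slc1a4*, *Slc7a7* and *Slc7a11*), and in 1.03% of the 27025 genes with a window. *Slc7a11* held the letters on both strands, at -66 and, on the other strand, at -47 from the start site. *Slc7a7* held them at -1, and *Slc1a4*, whose window is not printed, at -4. TCACCCCAC, a core of the sterol regulatory element, stood in none of the 34 genes and in 0.614% of all genes. TGACNNNGC, the core of the antioxidant response element, stood in 8 of the 34 genes (*Slc6a9*, *Slc6a11*, *Slc6a13*, *Slc7a1*, *Slc7a6*, *Slc36a1*, *Slc38a2* and *Slc43a1*) and in 14% of all genes. These matches are letters in a window and were not tested as binding sites.

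The windows of *Slc7a11* (chr3:50443564-50443863, minus strand) and *Slc7a7* (chr14:54417895-54418194, minus strand, 1 of 5 windows) are shown for the response element, which is in capitals.
Slc7a11: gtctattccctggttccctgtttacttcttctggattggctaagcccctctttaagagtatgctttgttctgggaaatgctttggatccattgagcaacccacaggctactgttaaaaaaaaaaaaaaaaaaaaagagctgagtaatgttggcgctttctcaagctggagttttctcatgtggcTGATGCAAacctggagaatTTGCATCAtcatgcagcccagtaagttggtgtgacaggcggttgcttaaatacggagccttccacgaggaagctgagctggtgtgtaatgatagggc
Slc7a7: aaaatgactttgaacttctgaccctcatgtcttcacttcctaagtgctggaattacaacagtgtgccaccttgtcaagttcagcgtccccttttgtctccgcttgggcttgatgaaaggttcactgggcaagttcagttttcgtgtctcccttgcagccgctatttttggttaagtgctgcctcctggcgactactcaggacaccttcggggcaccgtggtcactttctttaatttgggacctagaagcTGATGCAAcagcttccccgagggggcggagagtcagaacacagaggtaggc
The next 4 windows belong to carriers that fell in *Lrp2* sh2 versus ctrl sh RPE, *Slc1a1* (chr19:28834885-28835184, plus strand), *Slc6a13* (chr6:121300038-121300337, plus strand, 1 of 3 windows), *Slc7a10* (chr7:35186135-35186434, plus strand) and *Slc6a9* (chr4:117849100-117849399, plus strand, 1 of 3 windows). Capitals mark TGACNNNGC at -82 (other strand) in *Slc6a13* and at -46 in *Slc6a9*. The windows of *Slc1a1* and *Slc7a10* held none of the 3 motifs, and their GC content was 70.3% and 70.7%, with a median of 58.2% over the 52 windows of the members and 52.7% over all windows.
Slc1a1: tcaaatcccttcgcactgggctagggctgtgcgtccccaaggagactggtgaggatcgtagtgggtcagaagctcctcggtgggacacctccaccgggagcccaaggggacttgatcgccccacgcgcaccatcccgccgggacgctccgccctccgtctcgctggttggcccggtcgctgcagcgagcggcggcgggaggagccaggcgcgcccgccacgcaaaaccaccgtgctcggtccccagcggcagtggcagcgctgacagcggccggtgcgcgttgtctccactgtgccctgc
Slc6a13: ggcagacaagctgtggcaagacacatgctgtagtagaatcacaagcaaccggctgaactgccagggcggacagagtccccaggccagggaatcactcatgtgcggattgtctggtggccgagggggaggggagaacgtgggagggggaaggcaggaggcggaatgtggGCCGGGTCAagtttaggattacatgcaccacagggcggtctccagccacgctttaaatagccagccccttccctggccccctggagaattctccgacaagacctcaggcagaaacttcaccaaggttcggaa
Slc7a10: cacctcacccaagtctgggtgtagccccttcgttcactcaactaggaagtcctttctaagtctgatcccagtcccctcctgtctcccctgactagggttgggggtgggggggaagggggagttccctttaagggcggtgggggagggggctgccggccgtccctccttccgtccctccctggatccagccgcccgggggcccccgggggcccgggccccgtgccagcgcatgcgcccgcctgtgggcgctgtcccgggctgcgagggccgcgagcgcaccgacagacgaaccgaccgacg
Slc6a9: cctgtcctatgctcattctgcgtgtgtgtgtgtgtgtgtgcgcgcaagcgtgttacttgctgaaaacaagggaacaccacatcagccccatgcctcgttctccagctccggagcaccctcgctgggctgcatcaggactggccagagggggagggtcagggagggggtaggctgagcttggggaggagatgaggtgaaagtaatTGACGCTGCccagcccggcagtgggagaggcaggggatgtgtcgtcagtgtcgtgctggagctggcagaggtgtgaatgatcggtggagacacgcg

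Libraries held 8921885 to 13696934 counts. *Srebf2*, the gene whose active form was expressed, rose in nSREBP2 RPE by a log2FC of 1.10, and *Lrp2* fell by 1.68 on the log2 scale in *Lrp2* sh1 and by 1.60 in *Lrp2* sh2 RPE. The labelled tissue was checked by 9 RPE markers. *Mitf* (136 to 247 CPM) and *Tyr* (289 to 561 CPM) were found in every library, whereas *Rpe65*, the retinoid isomerase of the RPE, was at 371 to 1115 CPM in uninjected and at 1.07 to 97.8 CPM in injected libraries. Counts of Y-linked genes were 2770 to 2901 in the nSREBP2 libraries and 2 to 4 in the GFP libraries, so that sex and vector cannot be told apart within these 6 libraries. They were 3630 and 3625 in *Lrp2* sh2 replicates 2 and 3, 2958 in uninjected replicate 3 and at most 10 in the remaining libraries. Sex was therefore also uneven between *Lrp2* sh2 and ctrl sh, and between uninjected RPE and both GFP and ctrl sh. Summed markers of fibroblasts (6 genes) came to 18270 to 86220 CPM, and those of melanocytes (5 genes) to 734 to 1452 CPM. The cells that *Mitf* and *Tyr* came from were not tested. Libraries were made with a directional kit, but the strand setting and the annotation used in counting are not given in the sources used here, so genes that overlap an opposite-strand gene have uncertain counts. This touches *Slc1a1* (31.9% of exon bases shared), *Slc6a9* (30.3%), *Slc3a1* (26.5%), *Slc7a10* (17.9%) and *Slc7a4* (13.3%).

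Levels of different genes were set side by side as CPM per kilobase of exon in the uninjected RPE. The taurine carrier *Slc6a6* led with 105 ± 10 (SD, n = 3), followed by the heavy chain *Slc3a2* with 57.5 ± 7.45 and the glutamine and alanine carrier *Slc38a2* with 56.3 ± 6.57. The light chain *Slc7a5*, which carries leucine and other large neutral amino acids, had 40 ± 8.49, and the GABA and taurine carrier *Slc6a13* had 34.9 ± 17.9. The levels of *Slc3a2* and *Slc38a2*, like those of *Slc7a5* and *Slc6a13*, lay within an SD of each other. *Slc38a10* (25.6 ± 1.81), *Slc7a10* (16.6 ± 7.06), *Slc1a5* (14.9 ± 0.928), *Slc38a3* (14.6 ± 6.12) and *Slc1a1* (14.5 ± 6.67) completed the first 10, and the last 4 of these differed by less than the larger SD. Near the other end was *Slc7a14* (0.0171 ± 0.00529), a lysosomal protein of the cationic branch. The spread between uninjected mice was wide for *Slc6a13* and *Slc7a10* and narrow for *Slc1a5* and *Slc38a10*, and uninjected replicate 1 was low in *Slc6a13*, *Slc7a10*, *Slc38a3* and *Slc1a1* alike. That library also had the lowest summed RPE markers of its group, 2082, 5062 and 5324 CPM in replicates 1, 2 and 3.

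**Figure D1:**
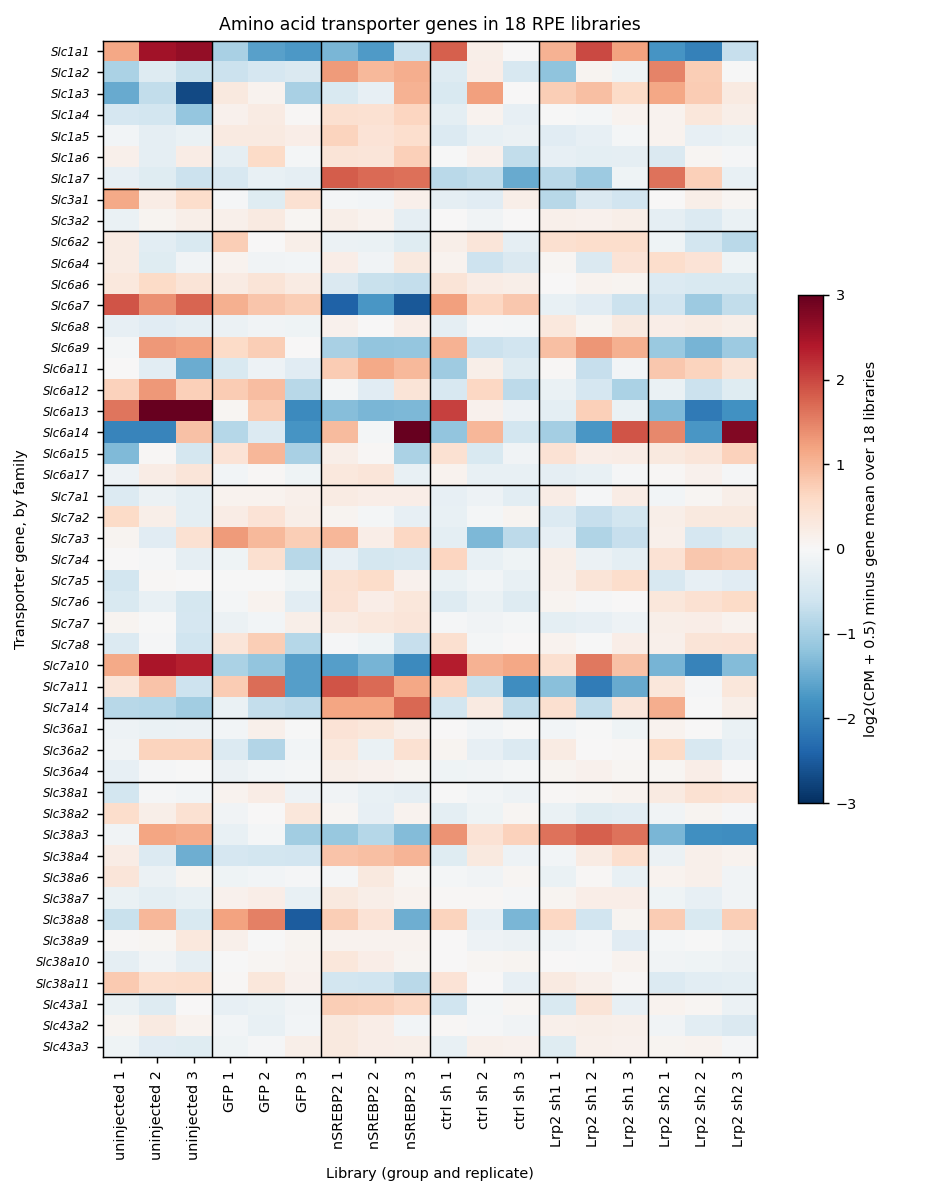
Heat map of 48 amino acid transporter genes (vertical axis, grouped by family) in 18 RPE libraries (horizontal axis, 3 per group). Colour gives log2(CPM + 0.5) minus the mean of the gene over all libraries. Most rows are pale, while *Slc1a1*, *Slc6a13*, *Slc7a10*, *Slc38a3* and *Slc6a7* change by group, and *Slc6a14* and *Slc38a8* change from library to library.

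In nSREBP2 versus GFP RPE, 48 of the 49 genes were tested and 20 were significant (adjusted *P* under 0.05), 14 higher and 6 lower. That is 41.7% of the members tested, where 21% of the 17927 genes tested were significant, 12.6% higher and 8.47% lower. Differential expression (adjusted *P* under 0.05 and absolute log2FC above 1) held for 9 members, 7 higher and 2 lower, against 6.67% of all genes. The median log2FC was 0.20 over the members and -0.02 over all genes. The count fell to 12 without GFP replicate 1 and to 13 without GFP replicate 2, and it was 13 in a fit of all 18 libraries with sex as a term, against 17 in that fit without the term.

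In *Lrp2* sh1 versus ctrl sh RPE, 6 of 46 members tested were significant, 4 higher and 2 lower (13%, against 5.33% of all genes, 3.06% higher and 2.28% lower). A single member was differentially expressed, *Slc6a7*, as were 0.994% of all genes. The 6 calls dropped to 3 when *Lrp2* sh1 replicate 1 or ctrl sh replicate 3 was left out, and to 2 when *Lrp2* sh1 replicate 3 was. In *Lrp2* sh2 versus ctrl sh RPE, 15 of 47 were significant, 7 higher and 8 lower (31.9%, against 18.1% of all genes, 8.59% higher and 9.48% lower), and 8 were differentially expressed, 2 higher and 6 lower (4.76% of all genes). Without *Lrp2* sh2 replicate 2, 7 members were significant and 4 differentially expressed, and without *Lrp2* sh2 replicate 1 differential expression held for 5. Median log2FC values of the members were 0.14 for *Lrp2* sh1 and 0.18 for *Lrp2* sh2, and -0.01 and 0.01 over all genes. Leaving out ctrl sh replicate 1 raised the differentially expressed members from 1 to 4 in the *Lrp2* sh1 comparison, and leaving out ctrl sh replicate 3 raised them to 2.

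The vectors themselves were compared with no injection. In GFP versus uninjected RPE, 7 of 46 members were significant, 3 higher and 4 lower (15.2%, against 2.48% of all genes, 0.662% higher and 1.82% lower). Differential expression held for 3, all lower, and for 1.41% of all genes. The count fell to 2 without GFP replicate 1 or 2 or uninjected replicate 3, and to 3 without GFP replicate 3 or uninjected replicate 2. Which members kept their call in GFP versus uninjected RPE was not followed under the alternatives. In ctrl sh versus uninjected RPE, 2 of 45 were significant, both lower (4.44%, against 6.49% of all genes, 3.13% higher and 3.37% lower). This count was 4 without ctrl sh replicate 1, and with edgeR it was 0 without ctrl sh replicate 2 or 3 or uninjected replicate 1 or 3. At an unadjusted *P* under 0.05, 16 of the 45 members and 25.7% of all genes passed in ctrl sh versus uninjected RPE, and DESeq2 called 2 members. The hairpins themselves were compared as *Lrp2* sh2 versus *Lrp2* sh1, where 23 of 47 members were significant, 11 higher and 12 lower (22.4% of all genes, 10.2% higher and 12.3% lower), and 9 were differentially expressed (5.13% of all genes). In the 3 comparisons of the study taken singly, 26 of the 48 members tested were significant in at least 1 (54.2%, against 31.8% of all genes). No comparison of the 6 called 15 members, among them *Slc1a3*, *Slc6a17*, *Slc7a8*, *Slc36a1*, *Slc38a9*, *Slc38a10* and *Slc43a3*.

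**Figure D2:**
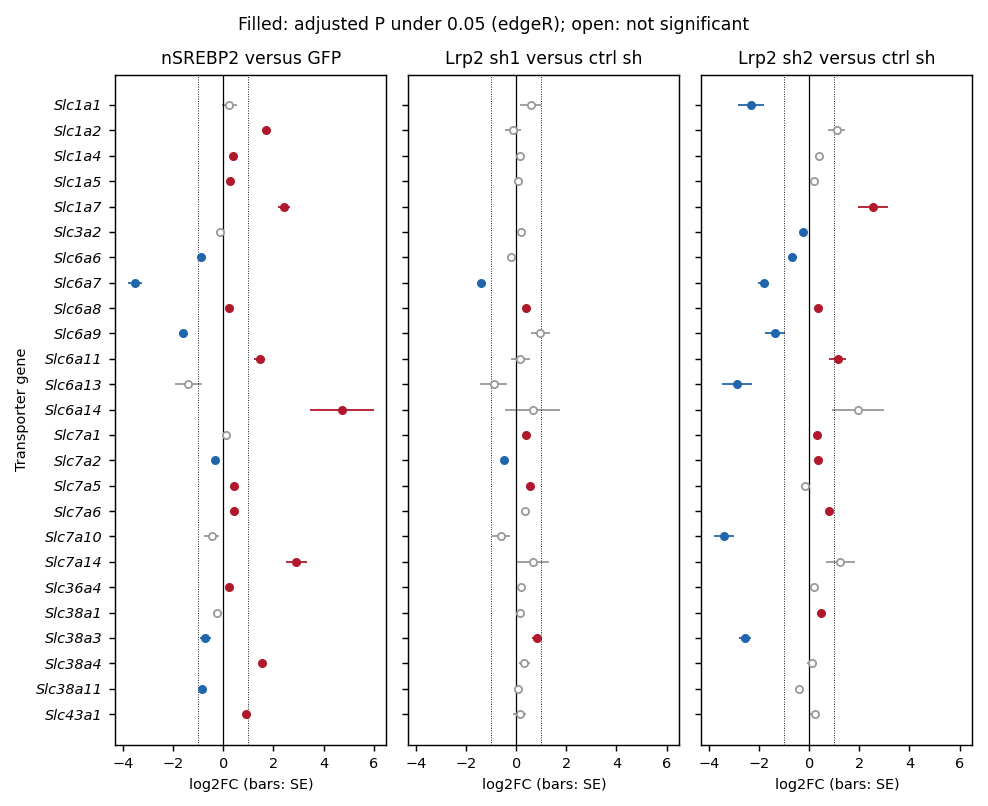
Log2FC (horizontal axes) of 25 of the 26 members that were significant in at least 1 of 3 comparisons (panels). Points are edgeR estimates, bars are SEs, filled points have an adjusted *P* under 0.05 (red higher, blue lower), open points do not, and dotted lines mark an absolute log2FC of 1. *Slc6a7* lies to the left in all panels, and *Slc38a3* lies to the right for *Lrp2* sh1 and to the left for *Lrp2* sh2.

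Among the glutamate carriers, *Slc1a1* (chr19:28835049-28913960), the neuronal and epithelial high-affinity carrier, had the widest range. Its level was 56.4, 145 and 157 CPM in uninjected replicates 1, 2 and 3. It was 12.6, 7.72 and 7.2 CPM with GFP, 9.31, 7.32 and 15.9 with nSREBP2 and 7.03, 5.7 and 15.2 with *Lrp2* sh2. The ctrl sh libraries had 88, 28.3 and 25.3 CPM and the *Lrp2* sh1 libraries 52.3, 99.4 and 58.7. All GFP, nSREBP2 and *Lrp2* sh2 libraries lay below all others. *Slc1a1* fell in GFP versus uninjected RPE (log2FC -3.73 ± 0.39, adjusted *P* = 0.00366) and in *Lrp2* sh2 versus ctrl sh RPE (-2.34 ± 0.51, adjusted *P* = 0.0124). The latter call was lost without *Lrp2* sh2 replicate 1 (adjusted *P* = 0.0517) or replicate 2 (adjusted *P* = 0.061). The log2FC for nSREBP2 versus GFP was 0.24 ± 0.30, adjusted *P* = 0.637, and that for ctrl sh versus uninjected was -1.36 ± 0.50, adjusted *P* = 0.137.

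The other glutamate carriers rose where they changed. *Slc1a2* (chr2:102658659-102790784), the main glial glutamate carrier of the brain, was at 8.49, 9.32 and 9.83 CPM with GFP and 33.4, 27 and 29.4 CPM with nSREBP2. *Slc1a7*, a glutamate carrier known from photoreceptors and bipolar cells, went from 1.02, 1.33 and 1.28 CPM to 6.96, 6.45 and 6.21 CPM. The nSREBP2 libraries lay above all GFP libraries for both genes, and both rose (1.69 ± 0.11, adjusted *P* = 1.28e-05 for *Slc1a2* and 2.42 ± 0.22, adjusted *P* = 7.98e-05 for *Slc1a7*). In *Lrp2* sh2 RPE, *Slc1a7* was at 6.07, 3.02 and 1.34 CPM with ctrl sh at 0.726, 0.781 and 0.253, and it rose by a log2FC of 2.54 ± 0.59, adjusted *P* = 0.0158. That call was lost without ctrl sh replicate 3 (adjusted *P* = 0.0655). For *Slc1a2* the *Lrp2* sh2 libraries were at 38.8, 22.9 and 13.3 CPM and the log2FC was 1.10 ± 0.34, adjusted *P* = 0.0538. Summed rod markers (10 genes) were at 37.9, 111 and 310 CPM in GFP libraries and at 348, 286 and 244 in nSREBP2 libraries. They were at 419, 77.6 and 108 CPM in *Lrp2* sh2 libraries and at 34.1 to 65 CPM in the other groups. GFP replicate 3, with the rod sum of 310 CPM, had 9.83 CPM of *Slc1a2* and 1.28 CPM of *Slc1a7*, close to the other GFP libraries. Rod markers were significant for 1 of 10 genes in nSREBP2 versus GFP RPE and for 8 of 10 in *Lrp2* sh2 versus ctrl sh RPE, all higher, and no rod marker was at 0 throughout a group. *Grm6*, the glutamate receptor of ON bipolar cells and a marker singled out after its values were seen, was at 0.255, 0.444 and 0.45 CPM in GFP, 4.51, 5.58 and 2.74 in nSREBP2, 0.29, 0.156 and 0.253 in ctrl sh and 5.51, 3.61 and 1.42 in *Lrp2* sh2 libraries. The part of retinal RNA in these rises was not tested.

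*Slc1a3*, the glutamate and aspartate carrier of glia, was chosen for description after its values were seen. It ranged from 6.04 CPM in uninjected replicate 3 to 99.4 CPM in ctrl sh replicate 2 and was significant in no comparison. The summed Müller glia markers (*Aqp4*, *Gfap* and *Rax*) ranged from 7.76 CPM in uninjected replicate 3 to 314 CPM in ctrl sh replicate 2, and their part in the spread was not tested. *Slc1a6*, a neuronal glutamate carrier, was at 0.42 to 2.01 CPM.

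The small neutral carriers *Slc1a4* and *Slc1a5*, which exchange alanine, serine, cysteine and, for *Slc1a5*, glutamine, were each called in 2 comparisons. *Slc1a5* was at 66.6, 58.9 and 61.7 CPM in uninjected, 85.1, 86 and 81.2 in GFP and 112, 94.7 and 99.9 in nSREBP2 libraries. These 3 groups did not overlap, and the gene rose in GFP versus uninjected (0.41 ± 0.08, adjusted *P* = 0.0354) and in nSREBP2 versus GFP RPE (0.28 ± 0.07, adjusted *P* = 0.0241). The latter was lost in the fit of all libraries (adjusted *P* = 0.0519) and without GFP replicate 1 (0.0532), GFP replicate 2 (0.0596) or nSREBP2 replicate 1 (0.0854). *Slc1a4*, named after its values were seen for the response element in its window, rose in the same 2 comparisons (log2FC 0.84 and 0.39). With the hairpins, neither gene was significant.

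**Figure D3:**
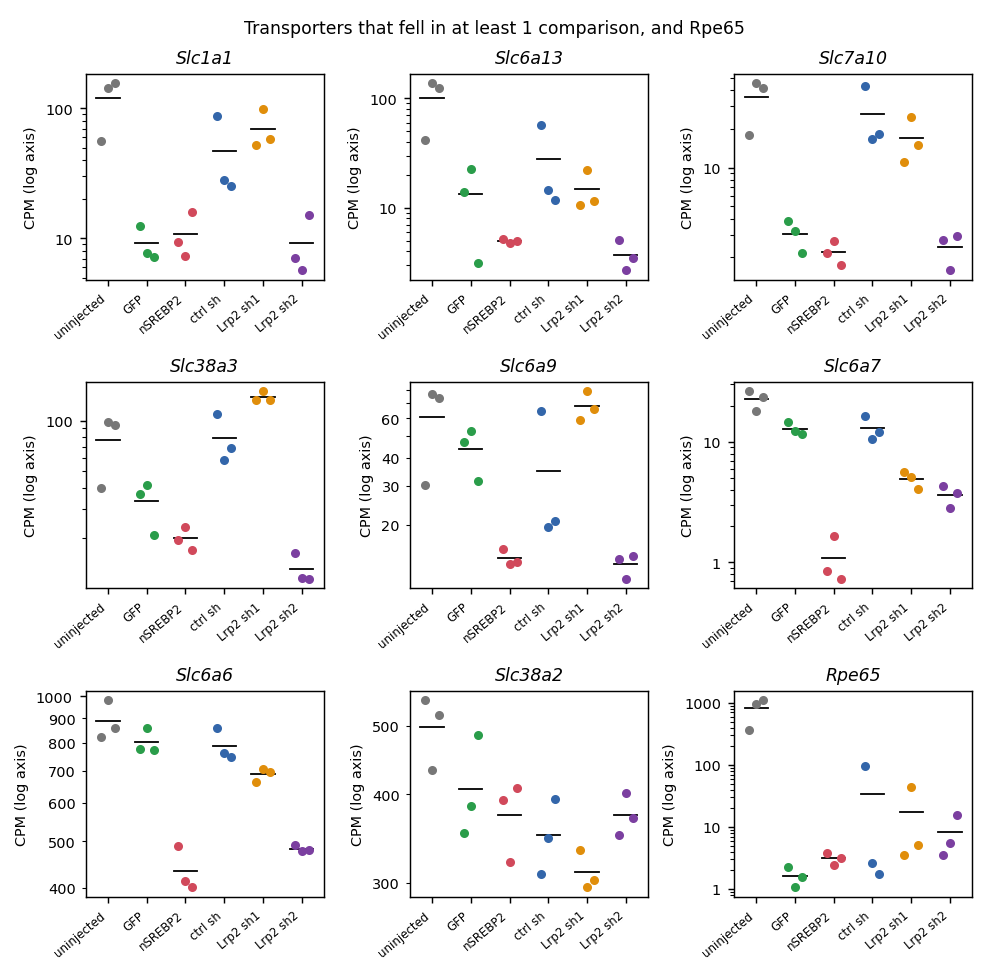
CPM (log axes) of 8 transporters and of *Rpe65* in each library (points), by group (horizontal axes). Black lines are group means. *Slc1a1* and *Slc7a10* are low in every GFP, nSREBP2 and *Lrp2* sh2 library, and *Slc6a7* is lowest in the nSREBP2 libraries.

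The heavy chain *Slc3a2*, which brings its light chains to the cell surface, was at 150 to 240 CPM in all libraries. It fell slightly in *Lrp2* sh2 versus ctrl sh RPE, from 201, 186 and 202 to 165, 150 and 174 CPM (-0.26 ± 0.07, adjusted *P* = 0.031), with no overlap between the libraries. This call was lost in 6 of 12 alternatives (adjusted *P* up to 0.109). Its log2FC was -0.15 ± 0.11, adjusted *P* = 0.391 with nSREBP2 and 0.18 ± 0.06, adjusted *P* = 0.111 with *Lrp2* sh1. *Slc3a1*, the heavy chain of kidney and gut, was at 0.63 to 3.93 CPM, and its light chains *Slc7a9* and *Slc7a13* were below the count minimum.

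*Slc7a5*, the light chain for large neutral amino acids, was at 163, 163 and 151 CPM with GFP and 226, 241 and 180 CPM with nSREBP2, and it rose (0.44 ± 0.10, adjusted *P* = 0.0141). It was at 144, 154 and 141 CPM with ctrl sh and 184, 214 and 239 CPM with *Lrp2* sh1, and it rose there too (0.53 ± 0.09, adjusted *P* = 0.0106). The *Lrp2* sh2 libraries, at 118, 138 and 129 CPM, lay below the ctrl sh libraries, with a log2FC of -0.18 ± 0.08, adjusted *P* = 0.15. *Slc7a6*, which exchanges cationic for neutral amino acids, was at 20.8, 23.7 and 20.7 CPM with ctrl sh and 34.3, 37.5 and 40.8 CPM with *Lrp2* sh2. It rose in *Lrp2* sh2 (0.80 ± 0.10, adjusted *P* = 0.0007) and nSREBP2 RPE (0.41 ± 0.12, adjusted *P* = 0.0322), and its log2FC in *Lrp2* sh1 RPE was 0.35 ± 0.09, adjusted *P* = 0.0593. Between the hairpins, *Slc7a5* was lower in *Lrp2* sh2 than in *Lrp2* sh1 RPE (-0.72 ± 0.10, adjusted *P* = 0.000579) and *Slc7a6* was higher (0.45 ± 0.08, adjusted *P* = 0.00384). The nSREBP2 call of *Slc7a5* was lost in the fit with sex as a term (log2FC 0.22, adjusted *P* = 0.537) and without GFP replicate 2 (0.0502) or nSREBP2 replicate 1 (0.0535) or 2 (0.0505). That of *Slc7a6* was lost with the sex term (log2FC 0.39, adjusted *P* = 0.158) and without GFP replicate 1 (0.0842) or 3 (0.0603) or nSREBP2 replicate 1 (0.112) or 3 (0.0657).

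*Slc7a7*, a cationic and neutral exchanger of epithelia and macrophages, and *Slc7a8*, a neutral exchanger, were not significant in any of the 3 comparisons of the study (absolute log2FC at most 0.49). *Slc7a11*, the cystine and glutamate exchanger, varied widely within groups. It was at 28.9, 54.9 and 5.03 CPM in the GFP libraries and 26.6, 10.4 and 4.3 CPM in the ctrl sh libraries. The nSREBP2 libraries were at 64.2, 56.3 and 38.3 CPM, the *Lrp2* sh1 libraries at 6.79, 3.55 and 5.61 and the *Lrp2* sh2 libraries at 21.7, 16.5 and 21.6. With GFP replicate 3 far below the other GFP libraries, the log2FC of nSREBP2 was 0.85 ± 0.56, adjusted *P* = 0.334. Against the uneven ctrl sh libraries, the log2FC of *Lrp2* sh1 was -1.38 ± 0.53, adjusted *P* = 0.187. The latter was significant in 2 of 12 alternatives, without ctrl sh replicate 3 and with no filter on low counts.

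*Slc7a10* (chr7:35186385-35201114), a light chain for small neutral amino acids including D-serine, behaved like *Slc1a1*. It was at 18.1, 45.6 and 41.7 CPM in uninjected, 42.7, 16.8 and 18.1 in ctrl sh and 11.1, 24.7 and 15 in *Lrp2* sh1 libraries. In GFP libraries it was at 3.82, 3.19 and 2.18 CPM, in nSREBP2 libraries at 2.16, 2.7 and 1.74 and in *Lrp2* sh2 libraries at 2.71, 1.59 and 2.93. The 9 libraries of the first 3 groups all lay above the 9 of the others. *Slc7a10* fell in GFP versus uninjected (-3.54 ± 0.37, adjusted *P* = 0.00363) and in *Lrp2* sh2 versus ctrl sh RPE (-3.41 ± 0.40, adjusted *P* = 0.000597), while the log2FC was -0.47 ± 0.29, adjusted *P* = 0.306 for nSREBP2 versus GFP and -0.46 ± 0.41, adjusted *P* = 0.513 for ctrl sh versus uninjected.

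**Figure D4:**
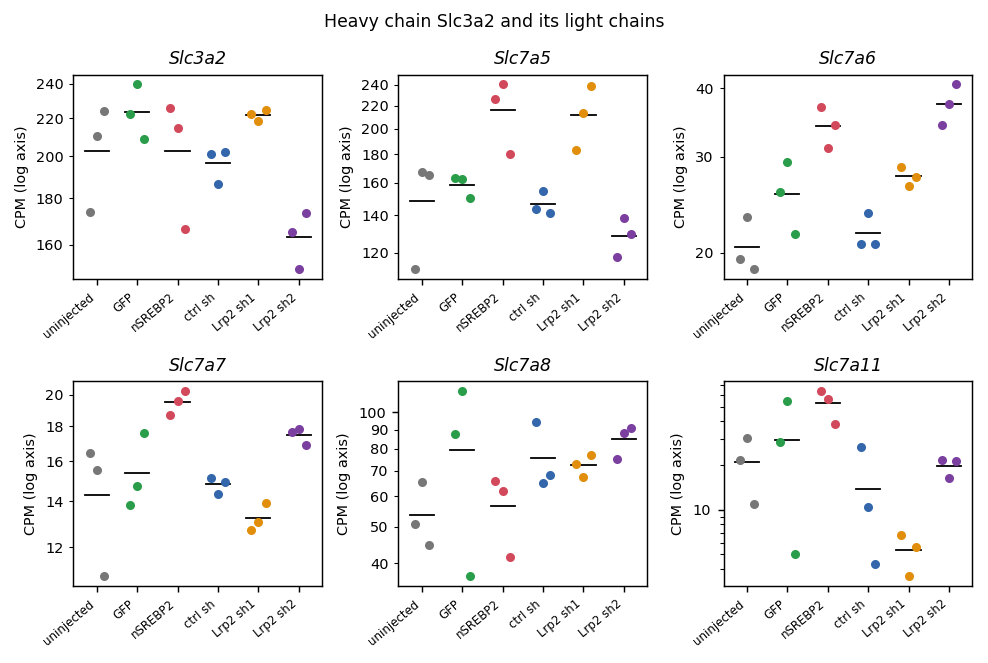
CPM (log axes) of the heavy chain *Slc3a2* and 5 of its light chains in each library (points), by group (horizontal axes), with group means as black lines. *Slc7a5* is higher in *Lrp2* sh1 than in *Lrp2* sh2 libraries and *Slc7a6* is lower, while *Slc7a8* and *Slc7a11* spread widely within the GFP group.

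Of the cationic carriers, which import arginine and lysine, *Slc7a1* was at 62.8, 67.4 and 59.9 CPM with ctrl sh, 87.9, 73 and 87.5 with *Lrp2* sh1 and 70.9, 78.6 and 85.5 with *Lrp2* sh2. It rose with both hairpins (log2FC 0.39 and 0.32) and in GFP versus uninjected RPE (0.40). *Slc7a2* was at 71.3, 79.2 and 88.1 CPM with ctrl sh, 62.7, 50.8 and 56.3 with *Lrp2* sh1 and 93.8, 102 and 101 with *Lrp2* sh2. It fell with *Lrp2* sh1 (-0.49 ± 0.10, adjusted *P* = 0.0206), rose with *Lrp2* sh2 (0.33 ± 0.09, adjusted *P* = 0.0287) and fell with nSREBP2 (-0.34 ± 0.10, adjusted *P* = 0.0334). The hairpins differed in *Slc7a2* (0.81 ± 0.08, adjusted *P* = 0.00011). Both genes were chosen for these values after they were seen. *Slc7a14* was near the limit of detection, at 0.594, 0.266 and 0.225 CPM with GFP, and rose to 2.35, 2.35 and 3.66 CPM with nSREBP2 (2.92 ± 0.42, adjusted *P* = 0.00104). *Slc7a3* (0.47 to 5.52 CPM) and *Slc7a4* (2.63 to 9.31 CPM) were not significant in the 3 comparisons of the study.

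The proline carrier *Slc6a7* fell in 5 comparisons. It was at 26.2, 18.2 and 23.6 CPM in uninjected, 14.5, 12.2 and 11.6 in GFP and 16.3, 10.6 and 12.1 in ctrl sh libraries. It was at 0.846, 1.66 and 0.731 CPM in nSREBP2, 5.61, 5.12 and 4.08 in *Lrp2* sh1 and 4.31, 2.85 and 3.77 in *Lrp2* sh2 libraries. None of the treated groups overlapped its control. The log2FC was -3.54 ± 0.28, adjusted *P* = 2.96e-05 for nSREBP2, -1.40 ± 0.19, adjusted *P* = 0.00356 for *Lrp2* sh1 and -1.82 ± 0.21, adjusted *P* = 0.000557 for *Lrp2* sh2. It also fell with GFP (-0.85 ± 0.16, adjusted *P* = 0.0349) and ctrl sh (-0.82 ± 0.19, adjusted *P* = 0.0407) versus uninjected RPE. The hairpins did not differ significantly from each other (-0.43 ± 0.22, adjusted *P* = 0.195). *Slc6a7* stayed significant under all 12 alternatives in each of the 3 comparisons of the study. Its call in ctrl sh versus uninjected RPE was lost with edgeR without ctrl sh replicate 2 or 3 or uninjected replicate 1 or 3. Its call in GFP versus uninjected RPE was not followed under the alternatives.

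The glycine carrier *Slc6a9* (chr4:117834506-117875198) was at 46.8, 52.5 and 31.4 CPM with GFP and 15.6, 13.4 and 13.6 CPM with nSREBP2, without overlap, and fell (-1.62 ± 0.17, adjusted *P* = 0.000198). The ctrl sh libraries were uneven at 64.6, 19.6 and 20.7 CPM, the *Lrp2* sh1 libraries were at 59, 79.1 and 65.7 and the *Lrp2* sh2 libraries at 14.1, 11.5 and 14.5. *Slc6a9* fell with *Lrp2* sh2 (-1.38 ± 0.41, adjusted *P* = 0.0459), a call that was lost with DESeq2 (adjusted *P* = 0.0978) and without any 1 of the *Lrp2* sh2 libraries (0.0822 to 0.149). With *Lrp2* sh1 its log2FC was 0.95 ± 0.38, adjusted *P* = 0.196.

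The taurine carrier *Slc6a6*, the most abundant member, was at 822, 983 and 857 CPM in uninjected and 777, 860 and 773 CPM in GFP libraries. It was at 489, 412 and 401 CPM with nSREBP2, below every GFP library, and fell (-0.89 ± 0.09, adjusted *P* = 0.000103). In ctrl sh libraries it was at 861, 762 and 746 CPM and in *Lrp2* sh2 libraries at 491, 476 and 478, and it fell there as well (-0.70 ± 0.07, adjusted *P* = 0.000365). With *Lrp2* sh1, at 663, 707 and 696 CPM, the log2FC was -0.20 ± 0.07, adjusted *P* = 0.148. Its uninjected, GFP and ctrl sh libraries overlapped. The creatine carrier *Slc6a8*, a gene on X, rose in all 3 comparisons of the study, and its log2FC was 0.24 with nSREBP2, 0.37 for the first hairpin and 0.34 for the second. It was at 73.3, 86.3 and 85 CPM with ctrl sh, 111, 94.4 and 110 with *Lrp2* sh1 and 102, 105 and 100 with *Lrp2* sh2, and no library of the hairpins overlapped ctrl sh. The nSREBP2 call was lost in 7 of 12 alternatives, including DESeq2 (adjusted *P* = 0.0503) and the sex term (0.284), and the *Lrp2* sh1 call in 5.

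Of the GABA carriers, *Slc6a13* (chr6:121300227-121337733), which also takes up taurine and is known from epithelia and meninges, was at 41.6, 139 and 123 CPM in uninjected libraries. It was at 13.8, 22.8 and 3.15 CPM with GFP, 5.17, 4.79 and 4.93 with nSREBP2 and 5.03, 2.68 and 3.43 with *Lrp2* sh2. The ctrl sh libraries had 56.7, 14.5 and 11.8 CPM and the *Lrp2* sh1 libraries 10.7, 22.1 and 11.5. Uninjected libraries were high, *Lrp2* sh2 and nSREBP2 libraries were low, and GFP and ctrl sh each held 1 library apart from the other 2. *Slc6a13* fell in GFP versus uninjected (-2.97 ± 0.60, adjusted *P* = 0.0419) and in *Lrp2* sh2 versus ctrl sh RPE (-2.88 ± 0.59, adjusted *P* = 0.00906). The *Lrp2* sh2 call was lost without *Lrp2* sh2 replicate 2 (adjusted *P* = 0.0508), and the GFP call was not followed under the alternatives. For nSREBP2 versus GFP the log2FC was -1.41 ± 0.53, adjusted *P* = 0.0936.

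*Slc6a11*, a GABA carrier of glia, was low in uninjected RPE and moved the other way. It was at 2.04, 2.66 and 2.25 CPM with GFP and 5.45, 7.23 and 6.4 CPM with nSREBP2, and it rose (1.45 ± 0.22, adjusted *P* = 0.00135). Every nSREBP2 library exceeded every GFP library. In *Lrp2* sh2 RPE *Slc6a11* rose to 5.59, 5.03 and 4.1 CPM (1.13 ± 0.34, adjusted *P* = 0.0474), a call lost in 6 of 12 alternatives. Markers of inner retinal neurons were beside these values, with 3 of 4 tested genes higher in nSREBP2 versus GFP RPE and 2 of 3 in *Lrp2* sh2 versus ctrl sh RPE. *Pou4f2* was at 0 throughout the ctrl sh and *Pou4f1* throughout the *Lrp2* sh1 libraries. Summed over 7 genes, the inner retinal markers were at 33.6, 48.2 and 23.9 CPM in GFP and 60.4, 54.1 and 56.2 CPM in nSREBP2 libraries. *Tfap2b* made up most of these sums, with 26.7, 33.7 and 22.6 CPM in GFP and 42.8, 35.7 and 42.6 CPM in nSREBP2 libraries. Uninjected libraries, with *Slc6a11* at 0.755 to 3.025 CPM, had sums of 40.05 to 45.06 CPM. Fibroblast and macrophage markers were higher for 6 of 6 genes each in nSREBP2 versus GFP RPE, and endothelium markers lower for 4 of 6. The part of other cells in these rises was not tested. *Slc6a12*, a GABA and betaine carrier, was at 0.17 to 2.71 CPM and was not significant where tested.

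**Figure D5:**
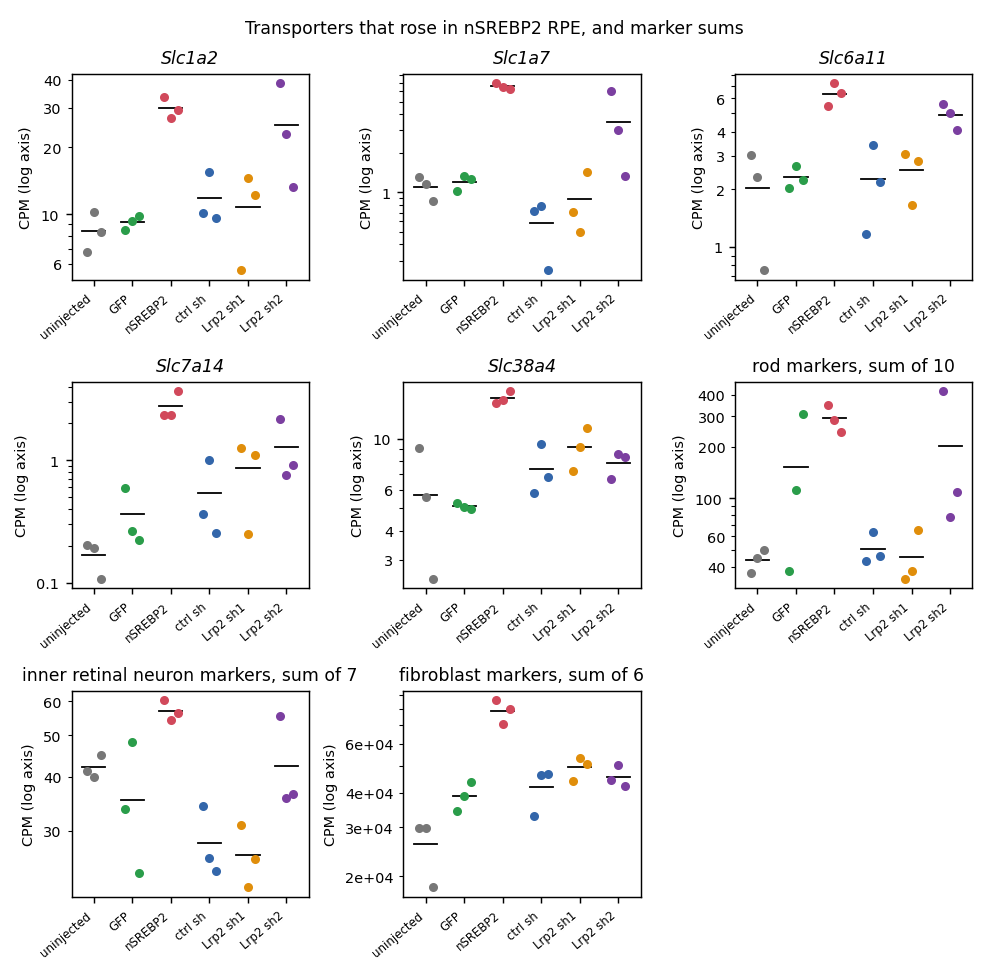
CPM (log axes) of 5 transporters and of summed rod, inner retinal neuron and fibroblast markers in each library (points), by group (horizontal axes), with group means as black lines. The nSREBP2 libraries lie above all GFP libraries for the 5 transporters, while GFP replicate 3 has a rod sum of 310 CPM and *Lrp2* sh2 replicate 1 one of 419 CPM.

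Of the remaining SLC6 members, *Slc6a14* differed widely between libraries of a group. *Slc6a14*, a carrier on X for neutral and cationic amino acids, was at 3.29, 1.39 and 38.8 CPM with nSREBP2 and 0.594, 0.976 and 0.075 CPM with GFP. Its log2FC of 4.74 ± 1.28, adjusted *P* = 0.0263 rested on nSREBP2 replicate 3, and without that library it was 2.11 (adjusted *P* = 0.0576). The call was also lost without any 1 of the GFP libraries and with the sex term. *Lrp2* sh2 libraries ranged as widely, at 4.87, 0.0838 and 13 CPM. The noradrenaline carrier *Slc6a2* was at 3.1 to 10 CPM, and the neutral amino acid carriers *Slc6a15* and *Slc6a17* at 10.2 to 52.9 and 86.8 to 135 CPM, and none was significant in the 3 comparisons of the study. *Slc6a4*, the serotonin carrier, was tested only in *Lrp2* sh2 versus *Lrp2* sh1 RPE (log2FC 0.43, adjusted *P* = 0.586).

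Among the SLC38 carriers, *Slc38a3* (chr9:107650634-107669530), which moves glutamine in either direction, differed in sign between the hairpins. It was at 110, 58.5 and 69.2 CPM with ctrl sh, 134, 149 and 134 with *Lrp2* sh1 and 16.4, 11.6 and 11.5 with *Lrp2* sh2. All *Lrp2* sh1 libraries lay above and all *Lrp2* sh2 libraries below the ctrl sh range. The log2FC was 0.81 ± 0.18, adjusted *P* = 0.0346 for *Lrp2* sh1 and -2.58 ± 0.24, adjusted *P* = 0.00018 for *Lrp2* sh2. The *Lrp2* sh1 call was lost in 9 of 12 alternatives (adjusted *P* up to 0.14), and the *Lrp2* sh2 call in none. The difference between the hairpins was significant (-3.39 ± 0.13, adjusted *P* = 4.36e-07). GFP libraries were at 36.8, 41.5 and 20.8 CPM and nSREBP2 libraries at 19.4, 23.4 and 17.1, and the fall with nSREBP2 (-0.73 ± 0.23, adjusted *P* = 0.0483), in which the groups overlapped, was lost in 7 of 12 alternatives.

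*Slc38a2*, the carrier that cells are known to raise when amino acids run short, was at 544, 432 and 517 CPM in uninjected and 308, 347 and 394 CPM in ctrl sh libraries. It fell in ctrl sh versus uninjected RPE (-0.53 ± 0.13, adjusted *P* = 0.0437) and was not significant in the 3 comparisons of the study. The ctrl sh call was lost with edgeR without ctrl sh replicate 2 or 3 or uninjected replicate 1 or 3. *Slc38a1*, a glutamine carrier that was chosen after its values were seen, rose from 162, 152 and 146 to 196, 222 and 217 CPM with *Lrp2* sh2 (0.47 ± 0.07, adjusted *P* = 0.00217). *Slc38a4*, which carries neutral and cationic amino acids and is imprinted, went from 5.26, 5.06 and 4.95 CPM with GFP to 14.2, 14.6 and 16 CPM with nSREBP2 (1.55 ± 0.13, adjusted *P* = 5.64e-05). The GFP and nSREBP2 libraries of *Slc38a4* each spanned less than 2 CPM. *Slc38a11*, a member of unknown substrate also chosen after its values were seen, fell from 16.1, 20 and 17.3 to 10.5, 10.3 and 8.77 CPM (-0.85 ± 0.13, adjusted *P* = 0.00143). *Slc38a10*, an abundant member, stayed between 157 and 239 CPM and was called in no comparison. *Slc38a6*, *Slc38a7*, *Slc38a8* and *Slc38a9*, the last a lysosomal arginine sensor, were not significant in the 3 comparisons of the study, and *Slc38a8* ranged from 0.15 to 10 CPM within the GFP group alone.

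Of the 3 SLC36 and 3 SLC43 carriers described, 1 of each rose in nSREBP2 RPE. *Slc36a4* rose in nSREBP2 versus GFP RPE by a log2FC of 0.23 (adjusted *P* = 0.034), and the lysosomal *Slc36a1* was at 31.1 to 48.1 CPM. *Slc43a1*, a leucine and phenylalanine carrier, was at 6.96, 7.19 and 7.73 CPM with GFP and 14.2, 14 and 13.2 CPM with nSREBP2 and rose (0.91 ± 0.13, adjusted *P* = 0.000862). *Slc36a4* and *Slc43a1* were named after their values were seen. *Slc43a2* (39.4 to 65.5 CPM) and *Slc43a3*, a purine base carrier despite its family (28.1 to 45 CPM), were not significant in these 3 comparisons.

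RPE markers were low as a sum in GFP, nSREBP2 and *Lrp2* sh2 libraries, but single markers differed. Summed over 9 genes they were at 2082, 5062 and 5324 CPM in uninjected, 3695, 2206 and 2386 in ctrl sh and 1747, 2259 and 1792 in *Lrp2* sh1 libraries. They were at 947, 971 and 821 CPM in GFP, 993, 829 and 702 in nSREBP2 and 928, 978 and 1352 in *Lrp2* sh2 libraries. As with *Slc1a1* and *Slc7a10*, the first 3 groups lay above the other 3 in this sum. Among the single markers only *Ttr* split so, at 734 to 2148 CPM in the first 3 groups and 40.4 to 322 CPM in the others. *Ttr* was also the highest of the 9 markers in every library of the first 3 groups. The other markers overlapped between the 2 sets of groups. *Rpe65*, for example, was at 2.58 and 1.77 CPM in ctrl sh replicates 2 and 3 and at 15.65 CPM in *Lrp2* sh2 replicate 3. Of the 9 markers, 5 fell in GFP versus uninjected RPE, among them *Rpe65* (log2FC -8.96) and the thyroid hormone carrier protein *Ttr* (-4.86). In *Lrp2* sh2 versus ctrl sh RPE 4 fell. In nSREBP2 versus GFP RPE 2 rose, *Best1* (log2FC 1.745) and *Ttr* (0.84), and 2 fell, *Rdh5* (-1.10) and *Otx2* (-1.69). No RPE marker was at 0 throughout a group. *Mitf* and *Tyr* were not among those that fell with GFP, and of 5 melanocyte markers 0 were significant in that comparison. The part of RPE cell content in the falls of *Slc1a1*, *Slc6a13*, *Slc7a10*, *Slc6a9* and *Slc38a3* was not tested.

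Other genes of amino acid transport and use were taken from 3 lists. Of 22 genes of the amino acid response, in which ATF4 raises carriers, synthetases and synthesis enzymes, 9 rose and 1 fell in GFP versus uninjected RPE (median log2FC 0.32, and -0.00354 over all genes). The pseudokinase gene *Trib3* rose by 3.74, the glutathione-degrading *Chac1* by 2.24 and the asparagine synthetase gene *Asns* by 2.02. In nSREBP2 versus GFP RPE 3 rose and 8 fell (median -0.22, and -0.02 over all genes), with *Trib3* at -1.62, *Sesn2* at -1.44 and *Chac1* at -1.31. With *Lrp2* sh1 3 were significant, all higher (median 0.15), and with *Lrp2* sh2 6 were, all higher (median 0.26), among them *Asns* by 1.62. Of all genes tested, 2.48% were significant in GFP versus uninjected RPE and 21% in nSREBP2 versus GFP RPE. The shares of all genes were 5.33% with *Lrp2* sh1 and 18.1% with *Lrp2* sh2. The members whose windows held the response element, *Slc1a4*, *Slc7a7* and *Slc7a11*, had log2FC values of 0.84, 0.09 and 0.45 in GFP versus uninjected RPE and 0.39, 0.34 and 0.85 in nSREBP2 versus GFP RPE, of which only those of *Slc1a4* were significant.

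Of 20 other amino acid carriers, 17 were tested. In nSREBP2 versus GFP RPE 3 rose and 2 fell, in *Lrp2* sh1 versus ctrl sh RPE 1 fell and in *Lrp2* sh2 versus ctrl sh RPE 1 rose and 2 fell. The medians were -0.01, 0.02 and -0.06, and -0.02, -0.01 and 0.01 over all genes. *Slc6a20a*, a proline and imino acid carrier, fell with *Slc1a1* and *Slc7a10* in GFP versus uninjected RPE (log2FC -4.44) and in *Lrp2* sh2 versus ctrl sh RPE (-3.08). *Slc17a7*, the vesicular glutamate carrier of photoreceptors and neurons, rose with nSREBP2 (1.83) and *Lrp2* sh2 (3.46). Of 21 tested genes of amino acid use, 4 rose and 3 fell with nSREBP2. The shares called in both lists are to be read against 21%, 5.33% and 18.1% of all genes in the same comparisons. With *Lrp2* sh1 4 rose and 1 fell, and 5 fell with *Lrp2* sh2, and the medians were 0.02, 0.01 and -0.18 beside the same medians over all genes. The glutamine synthetase gene *Glul* fell in all 3 comparisons, by 0.73, 0.40 and 0.69 on the log2 scale. The mitochondrial aspartate aminotransferase gene *Got2* rose with *Lrp2* sh1 (0.72) and fell with *Lrp2* sh2 (-0.59), as *Slc38a3* did.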

How the data were processed

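RNA-seq of mouse RPE was analysed in 18 libraries, grouped by their labels, with the LacZ hairpin taken as ctrl sh. The deposited values are whole-number counts per gene without normalization, which the authors obtained by mapping reads to GRCm38 and counting with STAR. Reads with more than a single match may not be counted. Libraries held 8921885 to 13696934 counts, and a count of 0 allows 3 counts (0.218 to 0.323 CPM), for counting error only. Replicates are separate mice, and none were alike enough to be 1 library (chi-square per degree of freedom at least 3.30).

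The quasi-likelihood test of edgeR 4.0.16 (R 4.3.3; filterByExpr, TMM) was run on the 2 groups of each comparison, with Benjamini-Hochberg adjustment over all genes tested. The SE is the log2FC divided by the root of the test's F value. CPM used TMM factors over all libraries, and levels between genes were divided by exon length in GENCODE M21. Scripts were tested on simulated data. Alternatives were DESeq2 1.42.0, its size factors, no filter, a replicate block, all libraries in one fit with or without sex, and each library left out. Members, lists, markers and motifs were chosen with earlier results of these data known. Genes were named if differentially expressed (at most 8 rises and 8 falls), if they were heavy chains, their light chains or the taurine and creatine carriers, or if among the 10 highest per kilobase in uninjected RPE, and others are said to be chosen after their values were seen. Proteins were not shown. The values of 1 member, which is included in the counts, are not reported here.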

Additional observations from a re-analysis of the deposited data

Results flagged for a closer look

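The test of the difference between the 2 hairpins against *Lrp2* gave 9 transporters that were differentially expressed in *Lrp2* sh2 versus *Lrp2* sh1 RPE, although *Lrp2* itself did not differ significantly (log2FC 0.08, adjusted *P* = 0.728). In all, 23 of 47 members were significant, 11 higher and 12 lower, and 22.4% of all genes tested were. *Slc38a3* (-3.39 ± 0.13, adjusted *P* = 4.36e-07), *Slc1a1* (-2.91 ± 0.34, adjusted *P* = 0.000247) and *Slc7a10* (-2.80 ± 0.32, adjusted *P* = 0.000243) were lower in *Lrp2* sh2 RPE, and no libraries overlapped. *Slc6a9* (-2.34 ± 0.13, adjusted *P* = 2.33e-06), *Slc6a13* (-1.98 ± 0.32, adjusted *P* = 0.00168) and *Slc6a2* (-1.06 ± 0.20, adjusted *P* = 0.00403) were lower as well, also without overlap. *Slc7a11* (1.91 ± 0.21, adjusted *P* = 0.000196) was higher without overlap, and *Slc1a7* (1.98 ± 0.56, adjusted *P* = 0.0287) and *Slc1a2* (1.23 ± 0.39, adjusted *P* = 0.0465) were higher with overlapping libraries. Of the same 2 groups, 4 of 9 RPE markers were lower and 9 of 10 rod markers higher in *Lrp2* sh2 RPE, 6 of 6 endothelium markers were lower, and the part of these cells was not tested. Y-linked counts were high in *Lrp2* sh2 replicates 2 and 3 and in no *Lrp2* sh1 library, and the fit of all libraries with sex as a term called 14 members, against 16 without the term.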

How the results depend on the processing

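Of the 922 values of named genes under the alternatives in the 3 comparisons of the study, 815 kept their direction and their side of the threshold. Another 67 lost significance, 22 gained it and 18 changed sign, none of these 18 for a gene that was significant. Comparisons with uninjected RPE and between the hairpins are not in this count. With sex as a term in the fit of all 18 libraries, significant members numbered 13 in nSREBP2 versus GFP RPE, 14 in *Lrp2* sh2 versus *Lrp2* sh1 and 6 in ctrl sh versus uninjected RPE, and *Slc1a1* had a log2FC of -0.39 in nSREBP2 versus GFP RPE. Without the term, that fit called 8 members in ctrl sh versus uninjected RPE. With no filter on low counts, 2 members were differentially expressed in *Lrp2* sh1 versus ctrl sh and 7 were significant in ctrl sh versus uninjected RPE. Deviations of same-numbered libraries from their group means had correlations of -0.36 to 0.30 over 15036 genes, and no comparison had all its pairs above 0.1. In *Lrp2* sh2 versus *Lrp2* sh1 RPE they were 0.298 and 0.289 for replicates 2 and 3 and -0.0308 for replicate 1. A replicate block gave 2 significant members in *Lrp2* sh1 versus ctrl sh and 1 in ctrl sh versus uninjected RPE.

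Leaving out 1 library at a time, significant members ranged from 12 to 24 in nSREBP2 versus GFP, 2 to 9 in *Lrp2* sh1 versus ctrl sh, 7 to 17 in *Lrp2* sh2 versus ctrl sh, 2 to 9 in GFP versus uninjected and, with edgeR, 0 to 4 in ctrl sh versus uninjected RPE. Differentially expressed members ranged from 1 to 4 with *Lrp2* sh1 and 4 to 9 with *Lrp2* sh2. Log2FC values that crossed 0, none of them significant with all libraries, ranged for nSREBP2 from -0.14 to 0.53 (*Slc1a1*), -0.23 to 0.0218 (*Slc38a2*) and -0.30 to 0.27 (*Slc3a1*). For *Lrp2* sh1 they ranged from -0.40 to 0.18 (*Slc1a2*), -0.0212 to 0.117 (*Slc1a5*), -0.0405 to 0.0174 (*Slc38a10*), -0.17 to 0.60 (*Slc6a11*), -1.33 to 0.16 (*Slc6a13*), -2.41 to 2.02 (*Slc6a14*) and -0.16 to 0.12 (*Slc7a8*). *Slc38a4* ranged from -0.0558 to 0.328 with *Lrp2* sh2. The cause was not tested. Members under 3 counts per library cannot be told from 0 at this depth, and 3 libraries per group leave small changes of uneven genes undetected.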
